A study of Mus musculus with 12 samples.

Results

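Potassium and sodium channel subunits were taken as every gene of the count table whose symbol is a Kcn family letter code followed by a number, or Scn with a number and the letter a or b, together with Abcc8 and Abcc9, the sulfonylurea receptors of ATP-sensitive potassium channels. The rule uses names alone, and it found 108 genes of 55401. Of these, 76 had enough reads to be tested, among 17699 genes tested in all. The libraries are RNA sequencing of left ventricle from mice, 3 libraries in each of 4 groups, made as single-end reads from mRNA libraries. T497A TAC are mice that carry the Prkca T497A substitution, a threonine-to-alanine change in protein kinase C alpha, after transverse aortic constriction (TAC), a narrowing of the aortic arch that loads the ventricle with pressure. T497A sham are mice with the same substitution after sham surgery, WT TAC are wild-type mice after TAC, and WT sham are wild-type mice after sham surgery. Surgery was at the age of 10 weeks, with a 27-gauge needle to set the constriction, and tissue was taken 1 week later, at 11 weeks. The labels name left ventricle as the tissue and cardiomyocyte as the cell type, but markers of fibroblasts, endothelium, mural cells and macrophages were all present, so the values are those of ventricular tissue.

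In a ventricular cardiomyocyte, sodium channels open first and depolarise the membrane, and potassium channels of several families then bring it back and hold it at rest. Each channel is a pore made of alpha subunits, whose amount and gating are set by beta and other auxiliary subunits. In the mouse ventricle, repolarisation depends on the fast transient outward current of Kv4 pores with KChIP2 and on slower delayed rectifier currents, while Kir2 inward rectifiers hold the resting potential and ATP-sensitive channels link the membrane to metabolism. Loss of outward potassium current is a classic feature of the hypertrophied and failing ventricle.

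Levels are given in CPM, a gene's count scaled to a fixed library total with TMM factors, which correct for differences in composition between libraries. Genes are set beside each other in CPM per kilobase of exon. Total counts per library were 58932759 to 72594085. The TMM factors were 1.13 to 1.21 in WT TAC and 0.910 to 0.988 in the other groups. A gene counts as called where its p from edgeR's quasi-likelihood test, adjusted after Benjamini and Hochberg across the 17699 genes, was under 0.05. Log2 fold changes are given with a standard error, worked out as their size divided by the square root of that test's F statistic. Values in parentheses are the log2 fold change and its adjusted p. The labels do not say whether the libraries of a group come from separate animals, so the p-values measure the spread between these libraries. The T497A substitution does not show in counts per gene, so the counts do not check it.

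The T497A sham libraries stood apart from the other 9. They had 215, 159.9 and 176 CPM of Xist, the transcript of the inactive X chromosome, while the T497A TAC, WT TAC and WT sham libraries had between 0.315 and 0.751 CPM. The Y-linked transcript Ddx3y was at 0.261, 0.396 and 0.0999 CPM in T497A sham and at 73.6 CPM or more in every other library. Between the sham groups, 104 autosomal genes were called at least 4-fold apart, of which 33 lay on chromosome 11, the chromosome of Prkca (31.7%, against 8.25% of autosomal genes tested). After TAC, the fold change of T497A over wild type had the opposite sign for 95 of these 104 genes. On a scale where WT sham is at 0 and T497A sham at 1, the median of these genes was at 0.0321 in T497A TAC and at 0.685 in WT TAC. None of the channel genes was among the 104. Of the channel genes described below, Scn4a, Kcnj2, Kcnj12 and Kcnmb1 also lie on chromosome 11. The part that this position plays in their genotype differences was not tested. Whether the labels of 2 groups were exchanged was not tested. Exchanged labels of the TAC groups would turn round every difference of T497A against wild type after TAC, and the TAC responses would be those given here against the other sham group. Within T497A, TAC and sham also differ in the Xist and Y-linked transcripts, so surgery and sex cannot be told apart in the T497A TAC response or in the interaction, nor fully in the averaged response, which sets TAC libraries against sham libraries that include these 3. The genotype labels are used here as given, and the main T497A TAC responses are also given against WT sham.

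Of the 32 genes that were not tested, 5 had no read in any library and the others had 2 to 62 reads over all 12. They include the neuronal and sensory sodium channel pores Scn1a, Scn9a and Scn11a, the kidney channel Kcnj1 and 7 of the 14 tandem-pore (K2P) genes. Among the 76 tested, 24 averaged at least 10 CPM over the 12 libraries, 26 averaged 1 to 10 CPM and 26 averaged less. Kcna3 and Kcnq3 passed the filter only because of their counts in WT TAC, and Scn8a only because of those in WT sham. Per kilobase, the highest level was that of Kcnk3, the pore of the acid-sensitive leak channel TASK-1, at 70.03 CPM per kb over all libraries. High levels were also found for Kcnip2, which encodes the Kv4 partner KChIP2, at 55 CPM per kb, and Abcc9, which encodes the sulfonylurea receptor SUR2, at 54.8 CPM per kb. Kcnj11, the Kir6.2 pore of ATP-sensitive channels, was at 44.4 CPM per kb and Kcng2, a silent Kv subunit, at 41.9. The levels of KChIP2 and of Kir6.2 were thus above those of the Kv4 pores, at 6.27 CPM per kb for Kcnd2 and 1.88 for Kcnd3.

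After TAC in wild type the abundant channel genes fell and more of the sparse ones rose than fell. Of the 76 genes tested, 23 were called higher and 30 lower in WT TAC than in WT sham (69.7% called), while 49.9% of all genes tested were called, 25.9% higher and 24% lower. Among the 24 genes of at least 10 CPM, 19 were lower and 1 was higher. Of all 8691 genes at that level, 63.3% were called, with 37.4% lower and 25.9% higher. Among the 26 channel genes of 1 to 10 CPM, 13 were higher and 8 lower, where 52.5% of all genes at that level were called (36.8% higher and 15.7% lower). Among the 26 below 1 CPM, 9 were higher and 3 lower, where 21.4% of all genes at that level were called (14.9% higher and 6.53% lower). Kcna3 and Kcnq3, which passed the filter only through WT TAC and so had to be high there, are 2 of these 9. Without them 7 of 24 were higher below 1 CPM, and 21 of 74 over all levels. The median log2 fold change was -0.12 over the 76 genes and -0.66 over the 24 abundant ones, against 0.03 over all genes tested. Without TMM factors the median over all genes was higher by 0.33 on the log2 scale, and the split became 33 higher and 22 lower over the 76, and 4 higher and 14 lower over the 24.

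**Figure D1:**
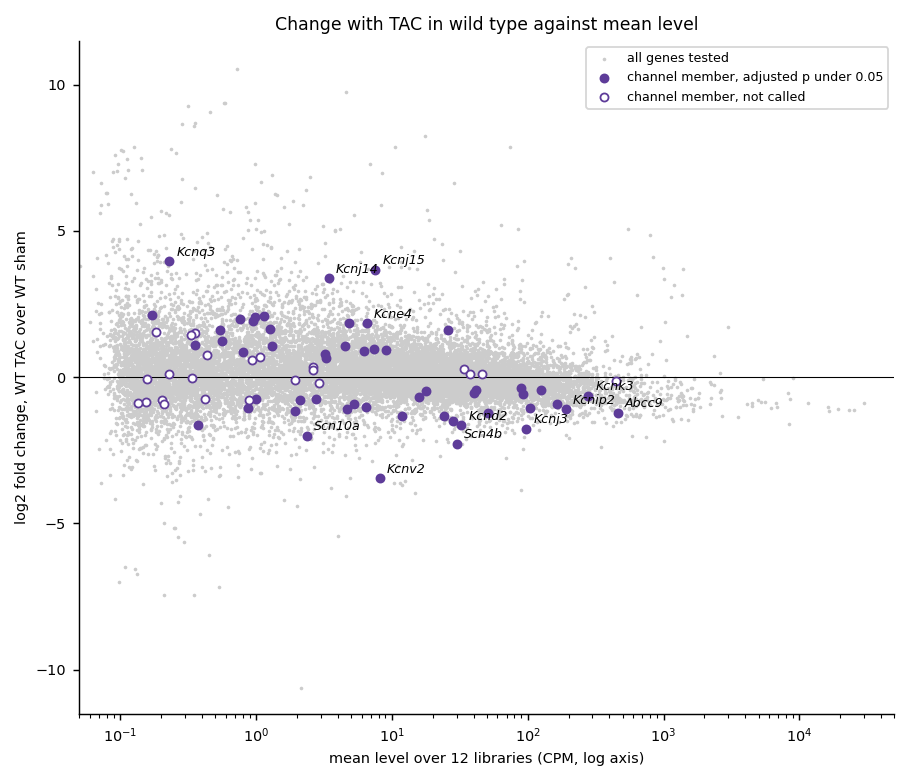
Log2 fold change of WT TAC over WT sham (vertical axis) against the mean level over 12 libraries in CPM (horizontal log axis), for all genes tested (grey) and channel genes (filled when adjusted p was under 0.05, open otherwise). Channel genes averaging 10 CPM or more lie mostly below 0, while those below 10 CPM lie on both sides.

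Summed over all 108 genes per kilobase of exon, channel transcripts stood at 395, 348 and 419.9 CPM per kb in WT TAC, against 584, 576 and 579.5 in WT sham. The T497A TAC libraries had 505, 490.2 and 503 CPM per kb, against 583, 634 and 579.5 in T497A sham. TAC and sham libraries of the same label did not overlap, and WT TAC was the lowest of the 4 groups. Inward rectifiers as a group summed to 115 ± 8.49 CPM per kb in T497A TAC, 151 ± 2.29 in T497A sham, 79.6 ± 5.95 in WT TAC and 146 ± 5.63 in WT sham (mean ± SD, n = 3 each). ATP-sensitive channel receptors (Abcc8 and Abcc9) summed to 62.3 ± 1.49, 65.2 ± 6.78, 34.5 ± 5.83 and 77.1 ± 3.2 CPM per kb in the same order, with WT TAC the lowest. KCNE subunits summed to 4.35 ± 0.549, 6.22 ± 1.09, 8.26 ± 0.655 and 3.05 ± 0.127 CPM per kb, with WT TAC the highest. Markers of other cells moved in the same libraries. The summed level of 12 ventricular cardiomyocyte markers was 44739 to 52482 CPM in WT TAC and 78981 to 87127 in WT sham. In T497A it was 73695 to 79368 after TAC and 83492 to 85909 after sham. The listed markers moved unevenly. Mean Myh6 was 13954.5 CPM in WT TAC and 30378 in WT sham, while mean Actc1 was 9019 and 9119. Summed fibroblast markers (10 genes) were at 9650 to 19237 CPM in WT TAC, against 2875 to 3225 in WT sham. In T497A they were at 3120 to 4356 CPM after TAC and 2868 to 3686 after sham. Here too single genes differed. Mean Col1a1 was 2695 CPM in WT TAC and 158 in WT sham, while mean Gsn was 586 and 1593. Macrophage markers (10 genes) were at 584 to 895 CPM in WT TAC, against 298 to 360 in WT sham. Summed markers of mural cells and endothelium moved less. Those of Schwann cells and neurons summed to 23.9 to 28.2 CPM in WT TAC and 23.7 to 26.4 in WT sham. Within this last list single markers moved both ways. Mean Tubb3 was 5.94 CPM in WT TAC and 1.3 in WT sham, and mean Dbh was 1.44 and 3.36. Snap25 was at 0 in all libraries. In tissue libraries, fewer cells of a type and less RNA in each cell cannot be told apart, and the part that these markers play in the channel results was not tested.

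**Figure D2:**
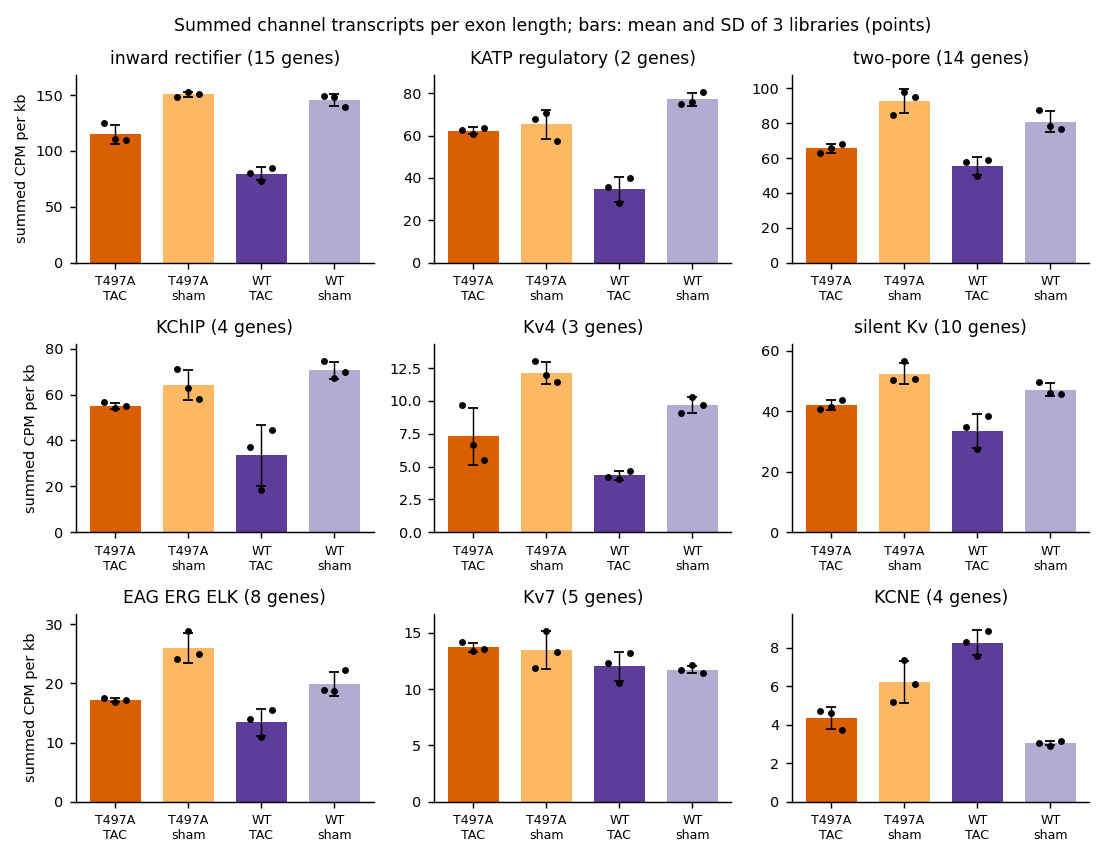
Summed level per kilobase of exon (CPM per kb) of 9 groups of channel genes in T497A TAC, T497A sham, WT TAC and WT sham, with the 3 libraries as points, their mean as bars and their SD as error bars. WT TAC is the lowest for inward rectifiers, sulfonylurea receptors, tandem-pore, KChIP, Kv4, silent Kv and Kcnh (EAG, ERG and ELK) genes. It is the highest for KCNE subunits and neither for Kv7 genes.

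Promoters are shown for some of the genes with the largest changes in the averaged TAC response, as the sequence at their starts. The rule took the 3 largest called rises and the 3 largest called falls in the TAC response averaged over both genotypes, among genes averaging 0.5 CPM or more with a single entry in the RefSeq promoter table (GRCm38.p6, 250 bases before to 50 after the start). The single-entry rule left out Kcnv2, the largest fall, and Kcnj14 and Kcnk2, which both rose more than Kcnn4. Kcnv2 and Kcnj14 have no entry and Kcnk2 has 4. Capitals mark a match, on either strand, to any of 5 motifs. These are the AP-1 motif written TGANTCA, the TEAD motif written GGAATG, the estrogen-related receptor (ERR) motif written AAGGTCA, the GATA factor motif written AGATAA, and the GC box written GGGCGG. Kcnj15, Kcne4 and Kcnn4 rose in the averaged response, and Scn4b, Scn10a and Kcnj3 fell. Of these, Scn4b and Kcnj3 were called in both genotypes and the other genes in wild type, not in T497A.
Kcnj15, chr16:95257308-95257607, plus strand: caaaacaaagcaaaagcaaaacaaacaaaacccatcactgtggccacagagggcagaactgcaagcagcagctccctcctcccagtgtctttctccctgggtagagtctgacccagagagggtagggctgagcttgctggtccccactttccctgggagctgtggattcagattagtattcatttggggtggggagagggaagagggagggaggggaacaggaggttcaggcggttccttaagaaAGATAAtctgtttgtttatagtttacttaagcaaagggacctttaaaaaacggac
Kcne4, chr1:78816661-78816960, plus strand: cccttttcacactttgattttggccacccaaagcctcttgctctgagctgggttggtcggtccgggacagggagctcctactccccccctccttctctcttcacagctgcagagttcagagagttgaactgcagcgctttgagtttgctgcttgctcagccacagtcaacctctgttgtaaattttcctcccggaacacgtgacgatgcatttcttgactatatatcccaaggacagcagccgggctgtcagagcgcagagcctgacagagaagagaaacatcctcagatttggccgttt
Kcnn4, chr7:24370013-24370312, plus strand: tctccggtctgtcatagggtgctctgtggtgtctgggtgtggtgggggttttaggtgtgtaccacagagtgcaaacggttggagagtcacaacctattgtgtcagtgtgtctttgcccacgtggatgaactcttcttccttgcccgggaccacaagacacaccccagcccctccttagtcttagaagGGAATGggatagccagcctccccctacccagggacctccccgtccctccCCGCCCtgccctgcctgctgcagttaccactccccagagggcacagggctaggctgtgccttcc
Scn4b, chr9:45138374-45138673, plus strand: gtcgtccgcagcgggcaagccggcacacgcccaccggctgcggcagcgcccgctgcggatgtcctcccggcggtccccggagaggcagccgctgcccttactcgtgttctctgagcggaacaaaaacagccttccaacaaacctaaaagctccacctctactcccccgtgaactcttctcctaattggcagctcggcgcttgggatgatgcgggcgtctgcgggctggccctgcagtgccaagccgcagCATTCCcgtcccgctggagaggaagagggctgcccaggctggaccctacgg
Scn10a, chr9:119718983-119719282, minus strand: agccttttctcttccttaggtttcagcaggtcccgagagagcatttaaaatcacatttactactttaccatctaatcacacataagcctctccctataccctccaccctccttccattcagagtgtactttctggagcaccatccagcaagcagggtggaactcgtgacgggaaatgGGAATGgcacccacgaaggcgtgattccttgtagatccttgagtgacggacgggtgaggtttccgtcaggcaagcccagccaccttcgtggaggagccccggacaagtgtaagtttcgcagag
Kcnj3, chr2:55435720-55436019, plus strand: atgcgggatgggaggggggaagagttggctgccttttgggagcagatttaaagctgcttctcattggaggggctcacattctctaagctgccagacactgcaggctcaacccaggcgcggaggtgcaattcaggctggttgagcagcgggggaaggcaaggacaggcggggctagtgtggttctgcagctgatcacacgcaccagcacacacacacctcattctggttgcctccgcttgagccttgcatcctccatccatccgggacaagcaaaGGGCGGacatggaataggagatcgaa

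Among these 6 windows, Kcnn4, Scn4b and Scn10a each held 1 TEAD match, Kcnn4 and Kcnj3 each held 1 GC box, Kcnj15 held 1 GATA match and Kcne4 held none of the motifs. Entries were found for 78 of the 108 genes, with 105 promoters between them. A TEAD match was in 17.1% of these 105 promoters and in 14.7% of all 32851 promoters of the table. For the GC box the shares were 43.8% of the channel promoters and 35.7% of all, for GATA 4.76% and 11.2%, for AP-1 3.81% and 7.81%, and for ERR 3.81% and 4.72%. A match describes the letters in the window and says nothing of binding.

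The sodium channel pore genes Scn10a and Scn4a fell in wild type. Of 10 pore genes 7 were tested, and in wild type 1 was higher and 3 were lower after TAC (2 and 2 without TMM factors). With TMM factors, 49.9% of all genes were called there. Scn10a, a sensory-neuron pore (Nav1.8), had 1.12, 0.682 and 0.580 CPM in WT TAC, against 2.93, 3.08 and 3.5 CPM in WT sham. It was lower in all 3 WT TAC libraries (-2.0 ± 0.33, adjusted p = 0.000181) and not called in T497A (-0.87 ± 0.32, adjusted p = 0.0594). The difference between these 2 responses, the interaction, was not called for Scn10a. Scn4a, the skeletal muscle pore Nav1.4, had 12.7, 14.8 and 14.5 CPM in WT TAC, against 32.8, 45.1 and 41.6 CPM in WT sham (-1.51 ± 0.24, adjusted p = 0.00039). In T497A the Scn4a libraries overlapped, with 37.9, 28.6 and 29.5 CPM in T497A TAC, against 18.9, 37.6 and 24.1 CPM in T497A sham, and the response differed between the genotypes (interaction 1.76 ± 0.33, adjusted p = 0.00306).

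Beta subunits are cell adhesion proteins that modulate the sodium channel pore. Scn4b, the beta4 subunit known for resurgent sodium current, fell in wild type, with 8.34, 10.9 and 8.47 CPM in WT TAC, against 40.2, 46.5 and 47.7 CPM in WT sham. The groups were far apart (-2.28 ± 0.21, adjusted p = 7.35e-06). The gene lies at chr9:45138395-45154152 (GRCm38), 8.32 kb from Scn2b. In T497A, Scn4b had 30.2, 24.7 and 25 CPM in T497A TAC, against 27.8, 51.4 and 42.1 CPM in T497A sham, and these groups overlapped (-0.60 ± 0.20, adjusted p = 0.0496). That T497A call was lost in 17 of 23 alternatives, with adjusted p ranging over 0.00116 to 0.149 across them all. Such counts of lost calls leave aside the exchange of sham groups, whose values are given separately. Against WT sham instead, T497A TAC was at -0.75 ± 0.20, adjusted p = 0.0397. Scn3b was higher in WT TAC, with 1.82, 1.81 and 1.94 CPM in WT TAC, against 0.614, 1.27 and 0.778 CPM in WT sham (1.07 ± 0.28, adjusted p = 0.00563). Scn2b was not called in wild type (0.70 ± 0.32, adjusted p = 0.0862).

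**Figure D3:**
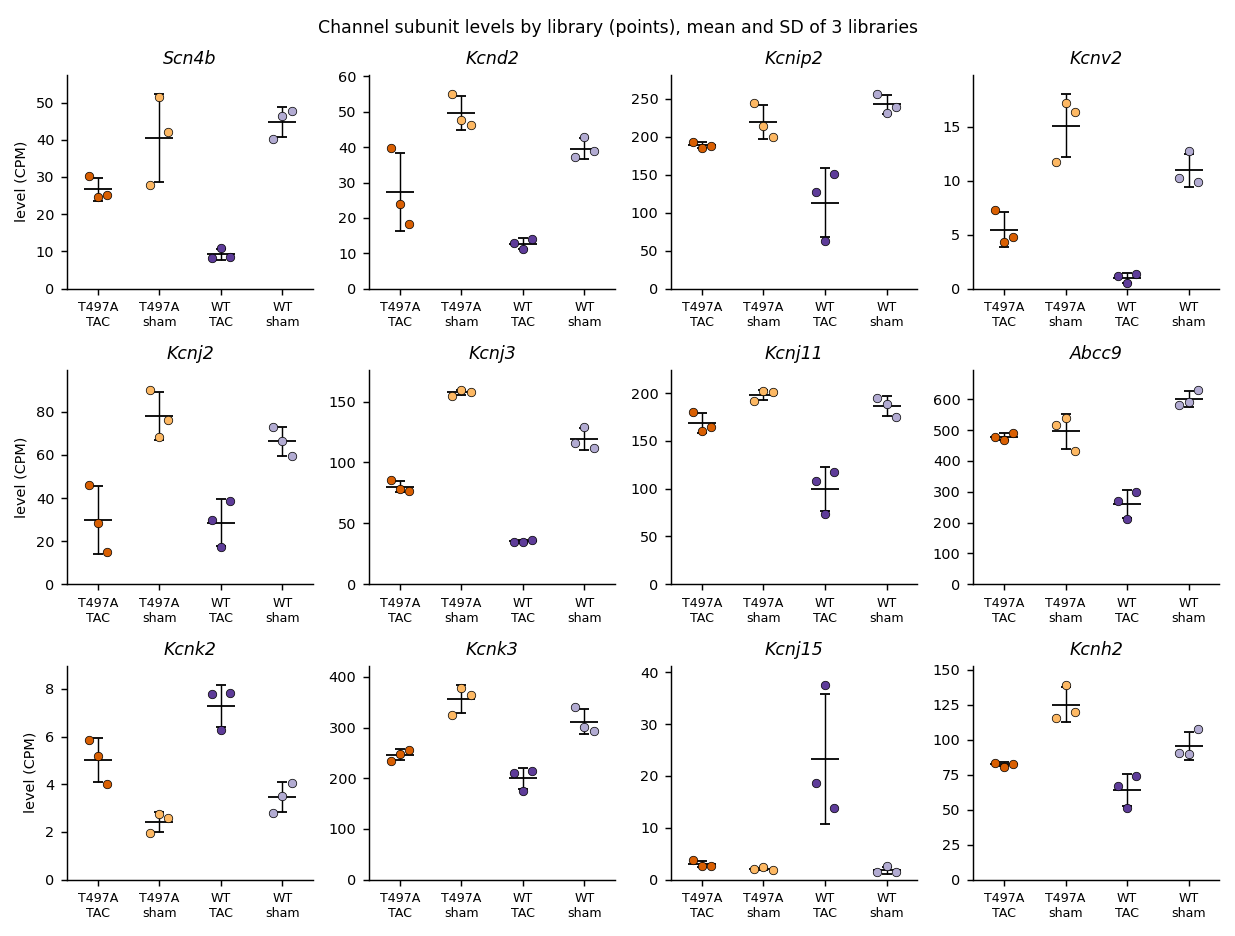
Level in CPM of 12 channel genes in each library (points) of T497A TAC, T497A sham, WT TAC and WT sham, with the mean and SD of 3 libraries in black. In WT TAC, Kcnj15 and Kcnk2 lie above both sham groups. Scn4b, Kcnd2, Kcnip2, Kcnv2, Kcnj2, Kcnj3, Kcnj11, Abcc9, Kcnk3 and Kcnh2 lie below them.

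The main genes of the transient outward current fell. Of 3 Kv4 genes, 1 was higher and 2 were lower in WT TAC (1 and 1 without TMM factors). In T497A TAC none was higher and 2 were lower. The shares of all genes called, with TMM factors, were 49.9% in wild type and 24.4% in T497A. Kcnd2, the Kv4.2 pore, had 12.9, 11.1 and 14.1 CPM in WT TAC, against 37.1, 42.9 and 38.8 CPM in WT sham, with a wide gap between the groups (-1.64 ± 0.24, adjusted p = 0.000304). In T497A, Kcnd2 had 39.8, 23.8 and 18.4 CPM in T497A TAC, against 55, 47.7 and 46.1 CPM in T497A sham, with all TAC libraries below all sham libraries (-0.86 ± 0.24, adjusted p = 0.0261). This T497A call was lost in 6 of 23 alternatives, among them the omission of any 1 of the T497A sham libraries, and against WT sham the log2 fold change was -0.53 ± 0.24, adjusted p = 0.192. Kcnd3, the Kv4.3 pore, fell less in wild type, at -0.47 ± 0.09 (adjusted p = 0.00078), and it was not called there without TMM factors (-0.14). In T497A, Kcnd3 was lower, at -0.35 ± 0.09 (adjusted p = 0.0143), a call lost without T497A sham replicate 2, and T497A TAC was not called against WT sham (-0.04 ± 0.09, adjusted p = 0.841).

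Kcnip2, whose product KChIP2 is needed for Kv4 current in the mouse heart, had 127, 62.1 and 151 CPM in WT TAC, against 256, 232 and 239.8 CPM in WT sham. All 3 WT TAC libraries were lower, and replicate 2 was the lowest (-1.1 ± 0.26, adjusted p = 0.00654). Without that library the log2 fold change was -0.80 (adjusted p = 3.87e-06). In T497A, Kcnip2 had 194, 185 and 188 CPM in T497A TAC, against 244, 215 and 199.7 CPM in T497A sham, a difference that was not called (-0.22 ± 0.26, adjusted p = 0.603). The interaction of Kcnip2 was not called either, so its responses were not shown to differ between the genotypes. The third Kv4 pore gene, Kcnd1, which is sparse, had 2.19, 3.4 and 1.98 CPM in WT TAC, against 0.614, 0.734 and 0.440 CPM in WT sham and was higher in every WT TAC library (2.08 ± 0.32, adjusted p = 7.93e-05). In T497A Kcnd1 was not called (-0.07 ± 0.32, adjusted p = 0.903).

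Among genes of the slower voltage-gated currents, the silent subunit Kcnv2 fell steeply while the pore gene Kcna5 was not called with TMM factors. Kcna5, the Kv1.5 pore, was not called in either genotype (0.29 ± 0.21, adjusted p = 0.276 in wild type and 0.06 ± 0.20, adjusted p = 0.873 in T497A). Without TMM factors, Kcna5 was called higher in WT TAC than in WT sham. Kcng2, an abundant silent subunit, was lower in WT TAC at -0.44 ± 0.10 (adjusted p = 0.00186) and not called without TMM factors. Kcnv2, the silent subunit Kv8.2 that joins Kv2 pores, had the largest fall of the 76 genes tested. It had 1.14, 0.486 and 1.36 CPM in WT TAC, against 10.3, 12.7 and 9.86 CPM in WT sham, far apart in every library (-3.46 ± 0.33, adjusted p = 6.5e-06). In T497A, Kcnv2 had 7.29, 4.29 and 4.82 CPM in T497A TAC, against 11.8, 17.2 and 16.4 CPM in T497A sham, again without overlap (-1.47 ± 0.29, adjusted p = 0.00407). The fall was smaller there (interaction 1.99 ± 0.43, adjusted p = 0.00531), and against WT sham the T497A TAC log2 fold change was -1.0 ± 0.29, adjusted p = 0.0527. The Kcnv2 gene lies at chr19:27322588-27337179.

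Of the 7 Kv1 genes tested, 1 was higher and 4 were lower in WT TAC (3 and 4 without TMM factors). With TMM factors, the share of all genes called in wild type was 49.9%. Kcna4, the Kv1.4 pore of the slow transient current, rose in T497A, with 3.07, 3.05 and 3.61 CPM in T497A TAC, against 1.39, 2.09 and 1.2 CPM in T497A sham (1.05 ± 0.23, adjusted p = 0.00375). In wild type it was at 0.34 ± 0.22 (adjusted p = 0.222), and the difference between the responses was not called (interaction adjusted p = 0.104). Without TMM factors, Kcna4 was called higher in wild type. Against WT sham the T497A value was 0.35 ± 0.22, adjusted p = 0.348. With TMM factors, the Kv1 gene called higher in WT TAC was Kcna3, which passed the filter only through that group.

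The delayed rectifiers split by gene. Kcnh2, the ERG pore of the rapid delayed rectifier, had 66.9, 51.6 and 74.1 CPM in WT TAC, against 90.6, 89.7 and 107 CPM in WT sham (-0.58 ± 0.12, adjusted p = 0.00117). In T497A, Kcnh2 had 83.8, 80.9 and 82.4 CPM in T497A TAC, against 116, 139 and 120.1 CPM in T497A sham, and in both genotypes every TAC library was below every sham library (-0.60 ± 0.12, adjusted p = 0.00281). Against WT sham, T497A TAC was at -0.22 ± 0.12, adjusted p = 0.271. Kcnq1, the pore of the slow delayed rectifier, was not called in wild type (0.12 ± 0.10, adjusted p = 0.337) or T497A (0.05 ± 0.10, adjusted p = 0.762), although it was called higher in wild type without TMM factors (0.45, adjusted p = 0.000473).

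Kcne1, the small partner of Kcnq1 that slows its gating, had 10.8, 6.01 and 12.2 CPM in WT TAC, against 5.49, 3.54 and 6.1 CPM in WT sham, and the groups overlapped although WT TAC was called higher (0.93 ± 0.29, adjusted p = 0.018). In T497A, Kcne1 had 7.41, 7.8 and 6.61 CPM in T497A TAC, against 10.3, 17.7 and 14.2 CPM in T497A sham, with the TAC libraries all lower (-0.95 ± 0.28, adjusted p = 0.0306). T497A sham held the highest Kcne1 of the 4 groups, and against the other sham group the directions turned round in both genotypes (-0.54 ± 0.28, adjusted p = 0.128 for WT TAC over T497A sham and 0.53 ± 0.29, adjusted p = 0.288 for T497A TAC over WT sham). The wild-type call was also lost without WT sham replicate 2 or WT TAC replicate 1 or 3, and the T497A call without T497A sham replicate 2 or 3 or any 1 of the T497A TAC libraries. Kcne4, a partner that inhibits several Kv pores, had 12.6, 14.4 and 13.1 CPM in WT TAC, against 3.36, 4.51 and 3.31 CPM in WT sham. All WT TAC libraries were above all WT sham libraries (1.84 ± 0.18, adjusted p = 1.18e-06), and it was not called in T497A (0.29 ± 0.18, adjusted p = 0.249).

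Kcnq5, a Kv7 pore of low level, showed opposite calls in the genotypes. It had 1.51, 1.5 and 1.64 CPM in WT TAC, against 0.341, 0.477 and 0.406 CPM in WT sham (1.92 ± 0.34, adjusted p = 0.000262). In T497A, Kcnq5 had 0.562, 0.369 and 0.286 CPM in T497A TAC, against 0.866, 1.65 and 1.93 CPM in T497A sham (-1.87 ± 0.34, adjusted p = 0.00119). In neither genotype did TAC and sham libraries overlap. With the sham groups exchanged neither difference was called, at 0.06 ± 0.31, adjusted p = 0.881 for WT TAC over T497A sham and -0.01 ± 0.36, adjusted p = 0.993 for T497A TAC over WT sham.

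The inward rectifiers of the cardiomyocyte fell after TAC in wild type. Of 10 Kir genes tested, 6 were lower and 3 higher (4 and 4 without TMM factors). In T497A 4 were lower and none higher. Over all genes, with TMM factors, 49.9% were called in wild type and 24.4% in T497A. Kcnj2, the Kir2.1 pore that holds the resting potential, had 30.01, 17.1 and 38.7 CPM in WT TAC, against 73.2, 66.4 and 59.3 CPM in WT sham. In T497A, Kcnj2 had 46, 28.5 and 14.7 CPM in T497A TAC, against 90.4, 68.4 and 76.1 CPM in T497A sham. In both genotypes all TAC libraries were below the sham libraries of the same label, with a wide spread within groups. The calls in wild type (-1.21 ± 0.41, adjusted p = 0.0359) and T497A (-1.4 ± 0.41, adjusted p = 0.0388) were each lost in 11 alternatives, among them the omission of any 1 of the WT sham libraries, of WT TAC replicate 1 or of T497A TAC replicate 2, and the wild-type call also without WT TAC replicate 2, while the response averaged over genotypes was called in all 22 of its alternatives (-1.3 ± 0.29, adjusted p = 0.00517). T497A TAC against WT sham was at -1.16 ± 0.41, adjusted p = 0.117. Kcnj12, the Kir2.2 pore, had 13.6, 13.2 and 14.7 CPM in WT TAC, against 35.8, 32.7 and 36.8 CPM in WT sham, with little spread (-1.34 ± 0.08, adjusted p = 1.7e-08). In T497A, Kcnj12 had 21.7, 20.8 and 22.3 CPM in T497A TAC, against 28, 27.8 and 24.4 CPM in T497A sham (-0.31 ± 0.08, adjusted p = 0.00881), a smaller fall (interaction 1.03 ± 0.11, adjusted p = 1.57e-05). Neither pair of Kcnj12 groups overlapped, and T497A TAC was also below WT sham (-0.70 ± 0.08, adjusted p = 0.000157).

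The Kir3 pores, which form the channel opened by acetylcholine and are best known in the atrium, fell in both genotypes. Kcnj3 (Kir3.1) had 34.9, 34.3 and 36.2 CPM in WT TAC, against 116, 129 and 112 CPM in WT sham (-1.76 ± 0.06, adjusted p = 8.88e-10). In T497A, Kcnj3 had 85.5, 78.2 and 76.9 CPM in T497A TAC, against 155, 159.8 and 158 CPM in T497A sham (-0.97 ± 0.06, adjusted p = 2.94e-07). Neither pair overlapped (40.6% of all genes did not overlap in T497A), and T497A TAC was also below WT sham (-0.57 ± 0.06, adjusted p = 0.000157). An antisense RNA gene overlaps 31.1% of the Kcnj3 exon length, and as the strand setting of the counting is not given in the sources used here, reads of Kcnj3 and of that gene cannot be told apart. Kcnj5 (Kir3.4) had 61.3, 60.1 and 63.9 CPM in WT TAC, against 127, 132 and 123 CPM in WT sham (-1.04 ± 0.07, adjusted p = 4.08e-08). The T497A response of Kcnj5 was at -0.30 ± 0.07 (adjusted p = 0.00395), with no overlap in either genotype. The atrial light chain Myl7, a sign of atrial tissue in a sample, was at 35.7, 16.6 and 45.1 CPM in WT TAC and 55.7, 84.5 and 6.64 CPM in WT sham, and at 9.7, 12.8 and 9.47 CPM in T497A TAC and 63.6, 74.4 and 261 CPM in T497A sham. It varied more within the sham groups than Kcnj3 did, and its part in the Kir3 values was not tested.

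The genes of ATP-sensitive channels fell together in wild type. Kcnj11 (Kir6.2) had 108, 73.7 and 118 CPM in WT TAC, against 195, 189 and 175 CPM in WT sham (-0.90 ± 0.13, adjusted p = 0.000119). Abcc9 (SUR2) had 268, 210.5 and 299 CPM in WT TAC, against 583, 591 and 632 CPM in WT sham (-1.22 ± 0.11, adjusted p = 1.11e-06). Abcc8 (SUR1), whose gene lies 3.76 kb from Kcnj11 on chromosome 7, was lower in WT TAC, at -0.55 ± 0.08 (adjusted p = 7.52e-05). No library of WT TAC reached the level of any WT sham library for these 3 genes, as was so, in one direction or the other, for 60.2% of all genes tested. In T497A none of them was called, with Kcnj11 at -0.24 ± 0.13, adjusted p = 0.222, Abcc8 at -0.21 ± 0.08, adjusted p = 0.0748 and Abcc9 at -0.05 ± 0.11, adjusted p = 0.779. Abcc9 had 478, 467 and 489 CPM in T497A TAC, against 516, 541 and 431 CPM in T497A sham. The responses of Abcc9 (interaction 1.16 ± 0.16, adjusted p = 0.000135) and Kcnj11 (interaction 0.67 ± 0.19, adjusted p = 0.0183) differed between genotypes, the second not without TMM factors. Kcnj8, the Kir6.1 pore of vascular smooth muscle and pericytes, lies 16.2 kb from Abcc9 and was lower in WT TAC at -0.44 ± 0.10 (adjusted p = 0.00258), a call lost without TMM factors. Mural cell markers summed to 1283 to 1430 CPM in WT TAC and 1133 to 1209 in WT sham. Single ones moved both ways. Mean Colec11 was 10.5 CPM in WT TAC and 21 in WT sham, and mean Cnn1 was 20.5 and 3.

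Among inward rectifiers of low level, 2 rose steeply. Kcnj15 (Kir4.2), which is known from kidney, had 18.7, 37.5 and 13.8 CPM in WT TAC, against 1.45, 2.64 and 1.4 CPM in WT sham (3.68 ± 0.40, adjusted p = 2.93e-05). In T497A, Kcnj15 had 3.76, 2.71 and 2.56 CPM in T497A TAC, against 1.99, 2.36 and 1.93 CPM in T497A sham, which was not called (0.52 ± 0.39, adjusted p = 0.374). Kcnj14 (Kir2.4) had 7.08, 22 and 2.27 CPM in WT TAC, against 1.3, 1.16 and 0.541 CPM in WT sham (3.39 ± 0.76, adjusted p = 0.00463). For both genes WT TAC replicate 2 was the highest library, and without it the values were 3.15 for Kcnj15 and 2.23 for Kcnj14, both still called. Within WT TAC the same library had the lowest cardiomyocyte light chain Myl2, at 3642, 2861 and 3901 CPM by replicate. It had the highest fibroblast collagen Col1a1, at 2290, 4170 and 1626 CPM. Other markers of these cells went the other way there. The cardiomyocyte marker Tnnt2 was highest in it (5999, 6145 and 5860 CPM) and the fibroblast marker Gsn lowest (625, 454 and 679 CPM). Kcnj10 (Kir4.1) was called higher in WT TAC at 1.61 ± 0.59 (adjusted p = 0.034), a call lost without any 1 of the WT sham libraries or without WT TAC replicate 2 or 3.

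Of the 7 tandem-pore leak channels tested, 3 rose and 1 fell in WT TAC, and 1 rose and 1 fell in T497A TAC. Among all genes tested, 49.9% were called in wild type and 24.4% in T497A. Kcnk3 (TASK-1) had 210.3, 176 and 214 CPM in WT TAC, against 340.1, 302 and 293 CPM in WT sham (-0.64 ± 0.09, adjusted p = 2.21e-05). In T497A, Kcnk3 had 235, 247 and 256 CPM in T497A TAC, against 325, 379 and 364 CPM in T497A sham (-0.53 ± 0.09, adjusted p = 0.000478), and T497A TAC was below WT sham too (-0.34 ± 0.08, adjusted p = 0.0218). All TAC libraries of a label were below its sham libraries. Kcnk2, the stretch-sensitive TREK-1, rose in both genotypes. It had 7.76, 6.29 and 7.82 CPM in WT TAC, against 2.8, 3.5 and 4.06 CPM in WT sham (1.08 ± 0.19, adjusted p = 0.00023). In T497A, Kcnk2 had 5.86, 5.2 and 4.02 CPM in T497A TAC, against 1.94, 2.76 and 2.58 CPM in T497A sham (1.05 ± 0.19, adjusted p = 0.00124), and against WT sham the T497A value was 0.54 ± 0.19, adjusted p = 0.0832. Again no TAC library overlapped the sham libraries of its label. An antisense gene covers 12.2% of the Kcnk2 exon length. Kcnk6 (TWIK-2) and Kcnk13 (THIK-1, known from microglia) were higher in WT TAC, at 0.97 ± 0.13 (adjusted p = 2.15e-05) and 1.64 ± 0.42 (adjusted p = 0.00456), and were not called in T497A.

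Calcium-activated channels diverged by gene, with 4 higher and 2 lower of 6 tested in WT TAC and 2 higher and 1 lower in T497A TAC. The shares over all genes were 49.9% called in wild type and 24.4% in T497A. Kcnn2 (SK2), which is expressed in cardiomyocytes, had 6.24, 5.56 and 6.77 CPM in WT TAC, against 15.1, 15.2 and 15.8 CPM in WT sham (-1.31 ± 0.11, adjusted p = 3.26e-07). In T497A, Kcnn2 had 15.5, 16.3 and 16.9 CPM in T497A TAC, against 9.46, 11 and 8.24 CPM in T497A sham, so here the TAC libraries were the higher ones (0.76 ± 0.11, adjusted p = 0.00018). The interaction was 2.07 ± 0.15, adjusted p = 8.47e-07, but against WT sham the T497A TAC value was 0.08 ± 0.11, adjusted p = 0.719, T497A sham being the lower sham group. Kcnn3 (SK3) went the other way, with 8.1, 8.03 and 9.08 CPM in WT TAC, against 2.32, 2.64 and 2.1 CPM in WT sham (1.84 ± 0.17, adjusted p = 7.28e-07). In T497A, Kcnn3 had 3.92, 4.17 and 2.69 CPM in T497A TAC, against 5.32, 5.22 and 4.63 CPM in T497A sham (-0.49 ± 0.16, adjusted p = 0.0384), and against WT sham T497A TAC was higher instead (0.61 ± 0.17, adjusted p = 0.0335). For both genes TAC and sham libraries of a label were separate, but the T497A call of Kcnn3 was lost in 9 of 23 alternatives, among them the omission of any 1 of the T497A sham libraries, of T497A TAC replicate 3, of WT sham replicate 1 or of WT TAC replicate 1.

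Kcnn4, the intermediate-conductance channel of fibroblasts and macrophages, had 1.14, 2.41 and 0.908 CPM in WT TAC, against 0.580, 0.257 and 0.270 CPM in WT sham (2.0 ± 0.45, adjusted p = 0.00196), with WT TAC replicate 2 again the highest and no overlap. Kcnma1, the BK pore, was called higher in WT TAC (2.04 ± 0.62, adjusted p = 0.0153), a call lost without WT TAC replicate 2 (1.4, adjusted p = 0.0684) or without WT sham replicate 3. Kcnmb1, the smooth muscle BK partner beta1, rose in both genotypes, with 4.46, 3.6 and 4.07 CPM in WT TAC, against 2.7, 3.19 and 1.78 CPM in WT sham (0.66 ± 0.20, adjusted p = 0.0113). The wild-type call was lost without WT sham replicate 3. In T497A, Kcnmb1 had 4.46, 4.43 and 3.85 CPM in T497A TAC, against 2.02, 2.5 and 2.5 CPM in T497A sham (0.86 ± 0.20, adjusted p = 0.00591), and T497A TAC was also above WT sham (0.73 ± 0.20, adjusted p = 0.0304). The Kcnmb1 gene lies within Kcnip1 on chromosome 11.

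**Figure D4:**
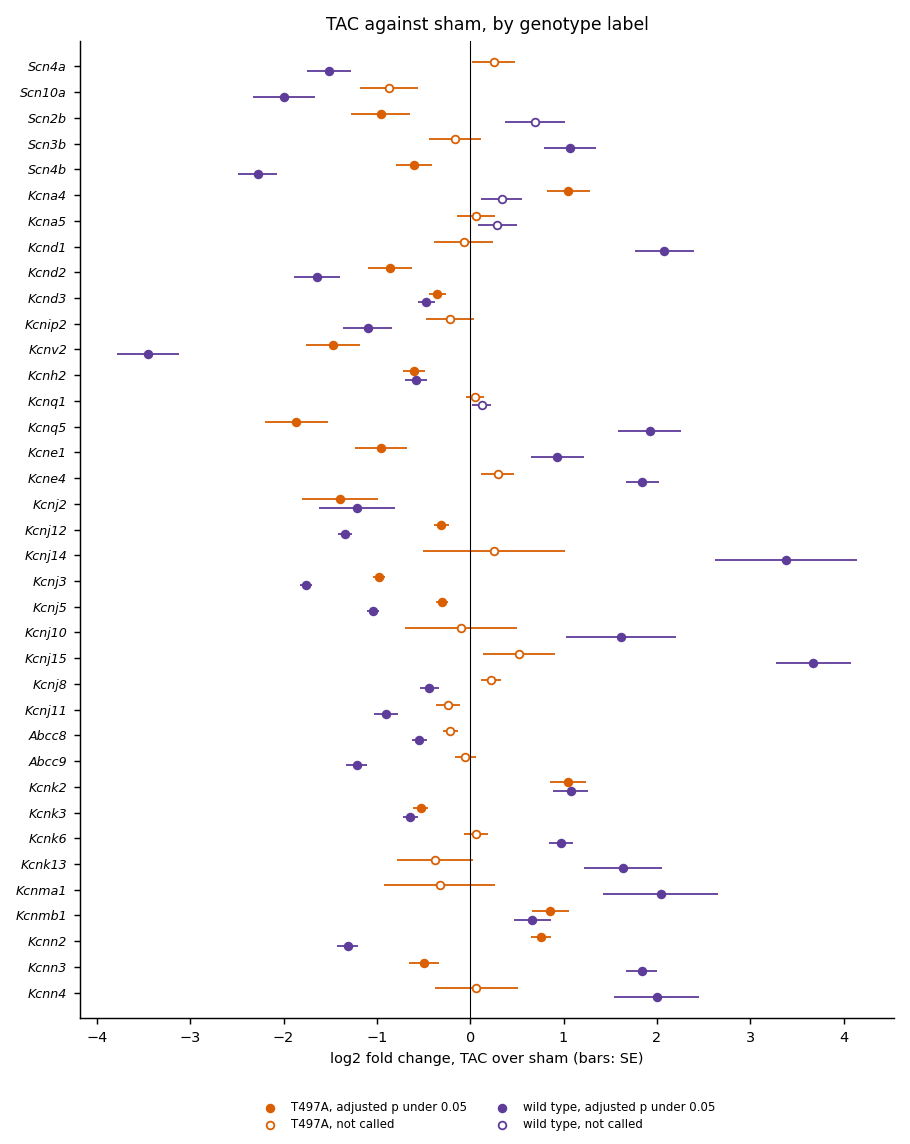
Log2 fold change of TAC over sham (horizontal axis, bars: standard error) of 37 named channel genes in T497A (orange) and wild type (purple), filled where adjusted p was under 0.05. Wild-type changes reach -3.46 for Kcnv2 and 3.68 for Kcnj15, Kcnk2 and Kcnmb1 are called higher in both genotypes, and Kcnq5, Kcnn3, Kcne1 and Kcnn2 have opposite calls.

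In T497A as a whole, where surgery and sex are confounded, 4 of the 76 genes were called higher and 18 lower after TAC (28.9% called), against 24.4% of all genes tested, with 12.9% higher and 11.4% lower. Among the 24 abundant genes 1, Kcnn2, was higher and 10 were lower, against 32.4% of all genes at that level called (15.4% higher and 17.1% lower). Against WT sham, the T497A TAC libraries had 8 channel genes called, 3 higher and 5 lower, where 10% of all genes were called (6.12% higher and 3.9% lower). These 8 were Kcnmb1, Kcnn3 and Kcnk6, which were higher, and Scn4b, Kcnj12, Kcnj3, Kcnj5 and Kcnk3, which were lower. Of the channel genes called in each genotype against its own sham group, 14 had the same direction, which is 34% of the 53 called in wild type and 81.8% of the 22 called in T497A. Over all genes tested the shares were 35.3% and 72.3%. Of the 14, 12 were lower and 2, Kcnk2 and Kcnmb1, were higher. A further 4 were called in opposite directions. WT TAC against T497A sham, the other exchange of sham groups, gave 18 higher and 31 lower channel genes, against 50.2% of all genes called.

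Averaged over the genotypes, with the T497A sham libraries as 3 of the 6 sham libraries, 15 channel genes were higher and 28 lower after TAC (56.6% called), against 48.4% of all genes, with 24.8% higher and 23.6% lower. Without TMM factors the split was 21 higher and 25 lower. Among the 24 abundant genes, 17 were lower and 1 was higher. Of all genes at that level 62.7% were called, 36.9% lower and 25.8% higher. Of the 43 calls, 35 held in every alternative, 25 of them lower and 10 higher.

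T497A and wild type were compared after each surgery. After TAC, 26 channel genes were higher and 17 lower in T497A than in wild type (56.6% called), against 35.7% of all genes, with 17.8% higher and 17.9% lower. Among the 24 abundant genes 17 were higher and 1 was lower, against 48.3% of all genes at that level called (28.8% higher and 19.5% lower). Without TMM factors, which moved the median of all genes by -0.25, the split over the 76 was 15 higher and 23 lower. The most abundant gene with a large difference was Abcc9, with 478, 467 and 489 CPM in T497A TAC, against 268, 210.5 and 299 CPM in WT TAC (0.88 ± 0.11, adjusted p = 4.51e-05). Kcnj3 had 85.5, 78.2 and 76.9 CPM in T497A TAC, against 34.9, 34.3 and 36.2 CPM in WT TAC (1.19 ± 0.06, adjusted p = 6.68e-08). Kcnv2 had 7.29, 4.29 and 4.82 CPM in T497A TAC, against 1.14, 0.486 and 1.36 CPM in WT TAC, the largest difference upward (2.45 ± 0.33, adjusted p = 0.000177). Scn4b (1.53 ± 0.21, adjusted p = 0.000249), Kcnn2 (1.39 ± 0.11, adjusted p = 9.63e-07), Scn4a (1.2 ± 0.23, adjusted p = 0.0029) and Kcnd2 (1.11 ± 0.24, adjusted p = 0.00559) were higher in T497A as well. None of these 7 genes overlapped between the groups, as was so for 49.5% of all genes tested.

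The genes lower in T497A after TAC included several that were higher in WT TAC than in WT sham. Kcnj15 had 3.76, 2.71 and 2.56 CPM in T497A TAC, against 18.7, 37.5 and 13.8 CPM in WT TAC (-2.95 ± 0.38, adjusted p = 0.000211). Kcnj14 (-3.06 ± 0.74, adjusted p = 0.0103), Kcnq5 (-1.93 ± 0.34, adjusted p = 0.000466), Kcnd1 (-1.8 ± 0.31, adjusted p = 0.000462) and Kcne4 (-1.43 ± 0.17, adjusted p = 2.72e-05) were lower too. Without WT TAC replicate 2 the value of Kcnj14 was -1.9 (adjusted p = 0.00925). Both this comparison and the TAC response in wild type use the WT TAC libraries, so their values are not independent of each other. In the same comparison 11 of 12 ventricular cardiomyocyte markers were called higher and 9 of 10 fibroblast markers lower in T497A. Over all genes tested, 17.8% were called higher and 17.9% lower. The part of these markers was not tested.

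After sham surgery few channel genes differed, with 7 higher and 2 lower in T497A (11.8% called), against 5.79% of all genes, 2.99% higher and 2.8% lower. Kcnj3 had 155, 159.8 and 158 CPM in T497A sham, against 116, 129 and 112 CPM in WT sham (0.40 ± 0.06, adjusted p = 0.00157). Kcnn2 had 9.46, 11 and 8.24 CPM in T497A sham, against 15.1, 15.2 and 15.8 CPM in WT sham (-0.68 ± 0.11, adjusted p = 0.00189), and Kcnj12 had 28, 27.8 and 24.4 CPM in T497A sham, against 35.8, 32.7 and 36.8 CPM in WT sham (-0.39 ± 0.08, adjusted p = 0.00698). Higher in T497A sham were also Kcnq5 (1.86 ± 0.34, adjusted p = 0.00521), Kcne1 (1.48 ± 0.29, adjusted p = 0.0133), Kcnn3 (1.1 ± 0.17, adjusted p = 0.00139), Kcnk6 (0.48 ± 0.13, adjusted p = 0.0418) and Scn7a (0.31 ± 0.09, adjusted p = 0.0469). The calls of Kcnk6 and Scn7a were lost in 9 and 8 alternatives, among them the omission of any 1 of the WT sham libraries, and that of Kcne1 without WT sham replicate 1 or 2. Of the 24 abundant genes 2 were higher and 2 lower in T497A sham, against 7.67% of all genes at that level called (3.66% higher and 4.02% lower). As the sham groups differ in Xist and Y-linked transcripts, genotype and sex cannot be told apart in this comparison.

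**Figure D5:**
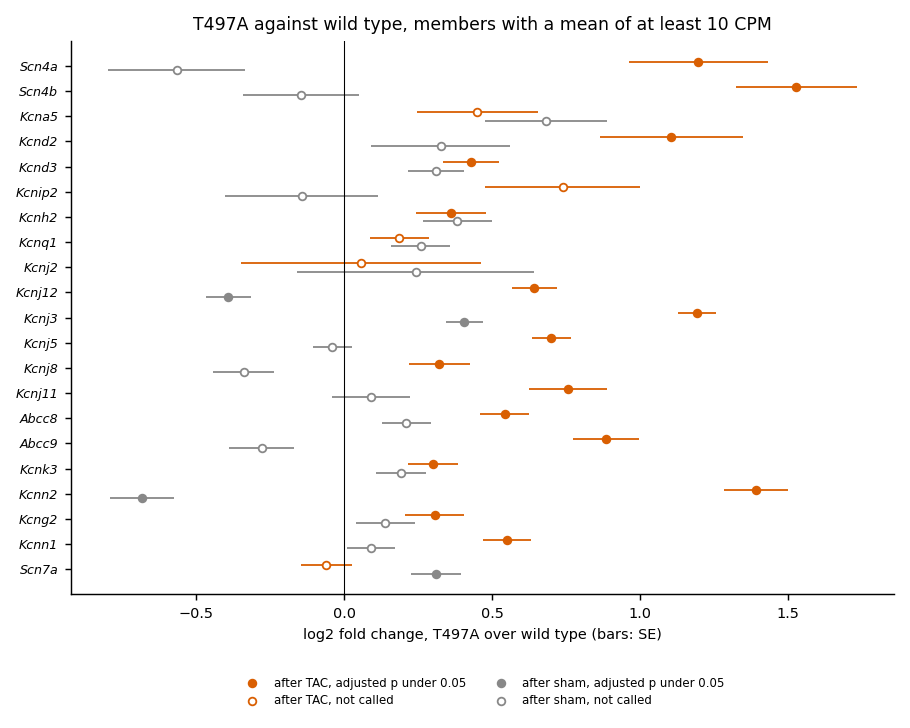
Log2 fold change of T497A over wild type (horizontal axis, bars: standard error) after TAC (orange) and after sham (grey) for 21 of the 24 channel genes averaging 10 CPM or more, the other 3 not being reported by name, filled where adjusted p was under 0.05. After TAC 16 of the 21 are called higher in T497A (17 higher and 1 lower over all 24), while after sham 4 are called.

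The TAC response itself was compared between the genotypes by the interaction, T497A response minus wild-type response. It was called for 33 channel genes, 16 positive and 17 negative (43.4%), against 29.5% of all genes, with 15.3% positive and 14.2% negative. Without TMM factors 11 were positive and 24 negative. Among the 24 abundant genes 11 were positive and 2 negative, against 40.4% of all genes at that level called (24.1% positive and 16.2% negative). Among the named genes, positive values were led by Kcnn2, Kcnv2, Scn4a, Scn4b, Abcc9 and Kcnj12. Negative ones were led by Kcnq5, Kcnj15, Kcnn3, Kcnd1 and Kcnk13. The response of Kcnk3 (0.11 ± 0.12, adjusted p = 0.547), Kcnh2 (-0.02 ± 0.17, adjusted p = 0.938), Kcnk2 (-0.03 ± 0.27, adjusted p = 0.951) and Kcnj2 (-0.18 ± 0.57, adjusted p = 0.846) was not called as different.

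Genes around the channels were followed as a list of 31 partners, of which 28 were tested. In wild type 3 were higher and 15 lower after TAC (64.3% called, against 49.9% of all genes), and in T497A 4 were higher and 9 lower (46.4%, against 24.4%). Klf15, a transcription factor known in mice to drive Kcnip2, fell in both genotypes (-1.26 ± 0.10, adjusted p = 2.8e-07 in wild type and -1.48 ± 0.10, adjusted p = 5e-07 in T497A) and was also lower in T497A TAC than in WT sham (-0.64 ± 0.10, adjusted p = 0.00186). Fgf13, a sodium channel binding factor, was lower in WT TAC (-1.13 ± 0.11, adjusted p = 3.45e-06) and not called in T497A (-0.15 ± 0.11, adjusted p = 0.38). Ank2, which anchors ion transporters, was lower in WT TAC (-0.87 ± 0.09, adjusted p = 2.18e-06). Slc8a1, the sodium-calcium exchanger, was higher in WT TAC (0.45 ± 0.09, adjusted p = 0.000864) and lower in T497A TAC (-0.29 ± 0.09, adjusted p = 0.0317), but T497A TAC was not called against WT sham (-0.13 ± 0.09, adjusted p = 0.426). After TAC, 14 of the 28 partners were higher and 3 lower in T497A than in wild type (60.7% called, against 35.7% of all genes).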

How the data were processed

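The deposited values are raw counts per gene from the authors, whole numbers in 12 columns. The tools named per the submitters' processing notes are Trim Galore 0.6.4, STAR 2.7.3a, featureCounts of Subread 1.6.3, and limma 3.50.3. The notes name the builds mm10 and GRCh38 without roles. Neither strand setting nor annotation release was given in the sources used here. Positions and exon lengths are from GENCODE M21 (GRCm38), in which all 108 channel genes matched.

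Genes were filtered with filterByExpr (minimum count 10) and scaled with TMM. The test was edgeR 4.0.16's quasi-likelihood F test (R 4.3.3, robust dispersion, 12 libraries, 1 mean per group). It was checked on simulated data in which few genes changed, so scaling under broad changes was not checked there. Alternatives were DESeq2 1.42.0, limma-voom 3.58.1, other scaling and filters, fewer samples or genes, the other sham group and each library left out. An exact test of 3 against 3 cannot go below p = 0.1, so single genes rest on the model.

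The channel genes, their role groups, partners and markers were chosen with earlier results of these data known. Named are 26 genes with a textbook role in the ventricle and, in each of the 6 comparisons, the 5 largest called rises and falls with a mean of at least 0.5 CPM. Kcng2, Scn7a, Kcna3, Kcnq3, Scn8a and the untested genes were named for their place in a group, and the leading interactions and partners after their values were seen. A few genes of these groups are counted but not reported here by name. Libraries of 1 group differed by more than counting error (chi-square per degree of freedom 10.6 to 149). Same-numbered libraries of different groups did not deviate together (correlations of -0.113 to 0.0742 over 18 pairs), so the numbers were not used as pairs.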

Additional observations from a re-analysis of the deposited data

Results flagged for a closer look

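For 22 named channel genes the TAC response differed between T497A and wild type by the interaction term in edgeR's test (T497A response minus wild-type response, log2 scale). Positive values were found for Kcnn2 (2.07), Kcnv2 (1.99), Scn4a (1.76), Scn4b (1.67), Abcc9 (1.16), Kcnj12 (1.03), Kcnj3 (0.79), Kcnj5 (0.74), Kcnj11 (0.67), Kcnj8 (0.66) and Abcc8 (0.33). All of these but Kcnn2, Scn4a and Kcnj8 had T497A log2 fold changes on the same side of 0 as in wild type.

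Negative values were found for Kcnq5 (-3.79), Kcnj15 (-3.15), Kcnn3 (-2.33), Kcnd1 (-2.15), Kcnk13 (-2.02), Kcnn4 (-1.94), Kcne1 (-1.89), Scn2b (-1.65), Kcne4 (-1.55), Scn3b (-1.23) and Kcnk6 (-0.91). The call of Abcc8 was lost in 14 of 22 alternatives, among them the omission of any 1 of the sham libraries, and those of Kcnn4 and Scn3b in 8 each, most of which omit 1 library. The call of Kcnk13 was lost without T497A sham replicate 3 and that of Kcnj11 without TMM factors or without a filter on low counts. Scn2b had 0.698, 0.554 and 1.2 CPM in T497A TAC, against 1.6, 1.58 and 1.6 CPM in T497A sham. In wild type it had 1.28, 1.39 and 0.845 CPM in WT TAC, against 0.955, 0.587 and 0.626 CPM in WT sham.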

How the results depend on the processing

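The counts of channel genes called in the TAC response of wild type, in T497A against wild type after TAC, in the interaction and in the averaged response stayed within 1.5 times their main value in every alternative run. The T497A TAC count of 22 became 8 against WT sham and 14 to 27 with 1 library left out, with 14 without T497A sham replicate 3 or T497A TAC replicate 2. The count of 9 after sham became 17 with DESeq2, 14 with limma-voom and 5 to 14 with 1 library left out, with 5 without WT sham replicate 1 or 2 and 14 without WT TAC replicate 2. Leaving out 1 library gave 47 to 55 in wild type (main 53), 32 to 41 after TAC (43), 27 to 36 for the interaction (33) and 39 to 46 for the averaged response (43). Of the results of named genes that were called, 4 changed sign against the other sham group, Kcne1 (0.53 in T497A and -0.54 in wild type), Kcnn3 (0.61 in T497A, adjusted p = 0.0335) and Scn2b (0.18 in T497A), and the cause was not tested. Leaving the T497A sham group out of the fit, an alternative chosen after seeing the data, gave 52 calls in wild type and 40 after TAC.

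Leaving aside the exchange of sham groups, 38 of 53 calls held in every alternative in wild type, 12 of 22 in T497A, 5 of 9 after sham, 23 of 43 after TAC and 19 of 33 for the interaction. Against the other sham group as well, 34 of the 38 and 5 of the 12 held with the same direction. With the replicate number as a block the counts were 52, 20, 7, 37 and 35 in that order and 42 for the averaged response. Only 3 libraries correlated best with their own number, so the numbers were not taken to pair libraries. Of the 26 genes under 1 CPM, 14 were not called in wild type, which does not show that they were the same.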
